A study of Carthamus tinctorius with 15 samples.

Results

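The genes described here are the 300 most evenly expressed genes across the root, stem, leaf and flower of safflower, Carthamus tinctorius, which is grown for its seed oil. They were chosen from the RNA-seq values themselves. Of 33242 rows in the deposited table, 5655 had at least 10 FPKM (reads divided by the length of the gene and by the total of the library) in all 12 libraries. For each of these rows the values were averaged over the 3 libraries of a tissue as log2(FPKM + 1), and the 300 rows with the smallest gap between the highest and the lowest of the 4 tissue means were taken. They are 0.902% of the table and 5.31% of the rows that met the minimum. That gap is called the range below.

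The groups were root, stem, leaf and flower, with 3 libraries each, and the labels give no age, cultivar or treatment for them. Seed libraries of the stage titled 6d (3 of them) have no column in the table used here and are left out. Whether the replicates of a tissue were separate plants is not stated, and the spread between them, and any p-value, may be technical. The tissue labels were not checked against marker genes, because the table is used here without gene names. Library totals recovered from the values ran from 26183138 to 31500664 reads.

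Genes that every cell needs, such as those for protein synthesis, protein turnover, the cytoskeleton and central metabolism, are called housekeeping genes. Genes with even transcript levels serve as internal references in quantitative PCR, where the level of a gene of interest is divided by that of a reference. Evenness is always relative to a scale, since RNA-seq measures a gene's share of the RNA sampled and not its amount per cell. In whole organs, fewer cells of a type and less RNA per cell cannot be told apart. Without gene names none of the 300 can be called a housekeeping gene here, and each is given by its row, where the first row of values is row 1, and by the gene length in bases recovered from its values. No member had the same values as another row in all 12 libraries.

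The range of the 300 genes ran from 0.072 to 0.38 with a median of 0.30 on the log2(FPKM + 1) scale. The other 5355 rows that met the minimum had a median range of 1.27 and reached 7.68. The even genes were thus the low tail of a continuous distribution, and no gap set them off. The last rows taken were row 7913 (1023 bases), row 29961 (3048 bases) and row 26687 (3348 bases), with ranges of 0.3808, 0.3816 and 0.3816. The first rows left out were row 13664 (268 bases), row 28430 (1656 bases) and row 6453 (3929 bases), with ranges of 0.3816, 0.3825 and 0.3826. These values chose the members and carry no test.

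**Figure D1:**
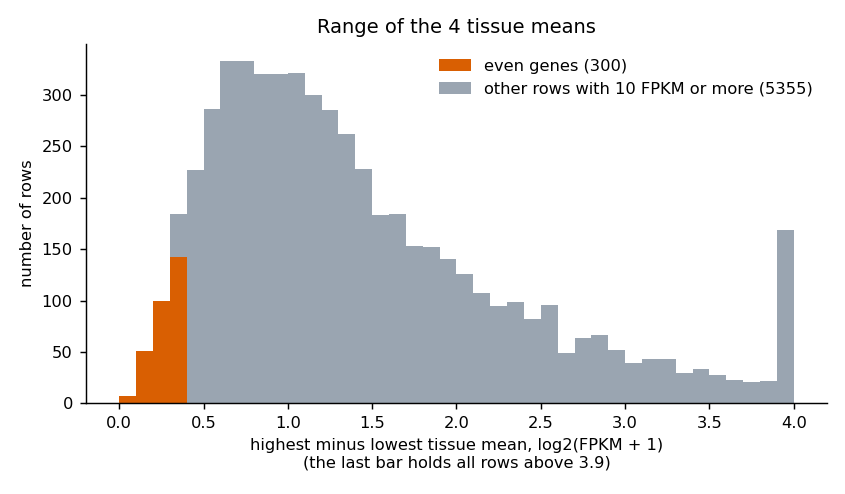
Range of the 4 tissue means (x, log2(FPKM + 1)) over 5655 rows with at least 10 FPKM in every library (y, number of rows per bar of 0.1), with the 300 even genes in orange and the other 5355 rows in grey. The even genes end at 0.38, on the rising slope of the distribution.

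The most even gene was row 22246 (1450 bases). It had 22.9, 20.9 and 24.3 FPKM in root libraries, 24.2, 24.3 and 22.8 in those of stem, 23.7, 20.4 and 23.7 in leaf libraries and 22.5, 24.3 and 23.0 in those of flower. The 4 tissues overlapped, and the lowest value of all was a leaf library. Its largest difference, stem minus leaf, was 0.072 with a standard error (SE) of 0.074 by limma. The row was picked for that small value, so nothing is read from it.

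Row 29346 (1947 bases) had 29.8, 27.7 and 30.2 FPKM in root libraries, 30.9, 27.9 and 31.5 in those of stem, 27.4, 28.7 and 28.9 in leaf libraries and 30.3, 29.0 and 28.4 in those of flower. Its highest library was 1.15 times its lowest, and root and flower had nearly the same mean, 29.2 ± 1.36 and 29.2 ± 0.968 FPKM (SD, n = 3). The largest difference was again stem minus leaf, at 0.083 (SE 0.060).

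In row 22246 the pooled replicate SD, taken within tissues over all 12 libraries, was 0.088 on the log2(FPKM + 1) scale, above its range. That also held for the other 4 of the 6 most even genes. Row 17282 (125 bases) had 38.5, 36.4 and 45.2 FPKM in root libraries, 32.1, 38.4 and 43.7 in those of stem, 39.3, 43.2 and 36.4 in leaf libraries and 38.6, 38.4 and 38.3 in those of flower. It was short, with as few as 114 reads in a library, and only its flower libraries lay close together. Row 21663 (1956 bases) lay between 12.2 and 15.5 FPKM, with both extremes in flower. Row 20748 (2064 bases) lay between 12.2 and 17.9 FPKM, with both extremes in stem. Row 13449 (841 bases) lay between 18.2 and 23.9 FPKM, again with both extremes in stem. For these 4 genes the pooled replicate SD was 0.12 to 0.16, against ranges of 0.075 to 0.094. Single libraries moved these small ranges. The range reached 0.11 in row 22246 without root replicate 3 and 0.13 in row 29346 without stem replicate 2. It reached 0.18 in row 17282 without stem replicate 3, 0.18 in row 21663 without flower replicate 2, and 0.23 and 0.21 in rows 20748 and 13449 without stem replicate 1. The order of the most even genes is therefore uncertain.

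**Figure D2:**
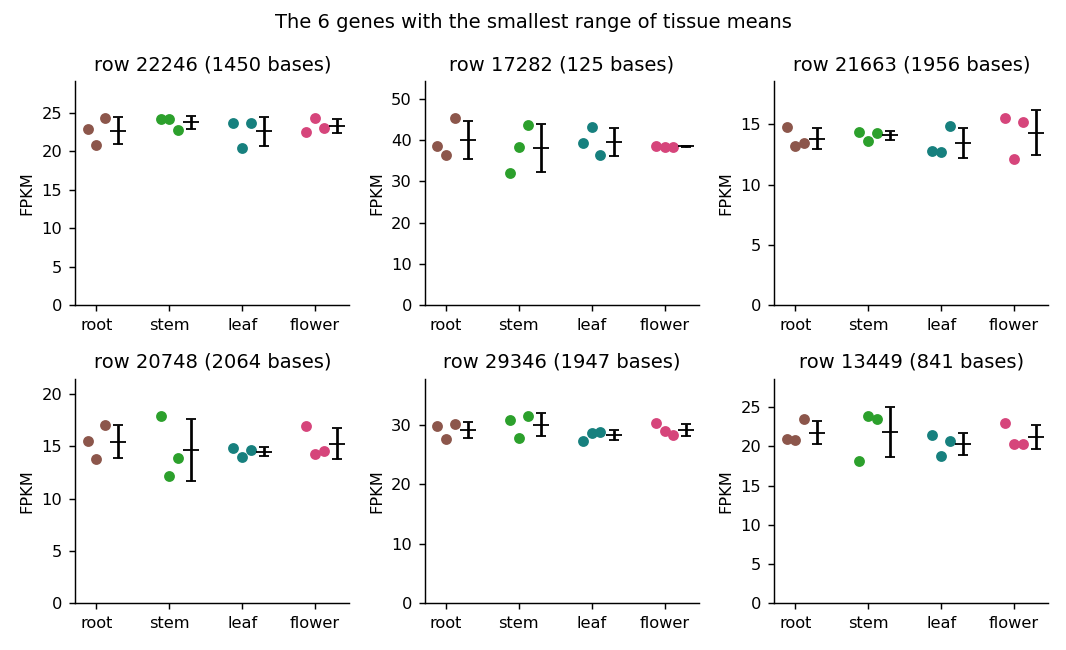
FPKM (y, from 0) of the 6 genes with the smallest range in root, stem, leaf and flower (x). Coloured points are libraries, and black bars are the mean and SD of 3 libraries. In rows 22246 and 29346 all libraries lie close, while in rows 20748 and 13449 a stem library lies far below another.

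Most members were expressed at a moderate level. The mean over the 12 libraries had a median of 24.8 FPKM in the 300 genes and 45.4 FPKM in the other 5355 rows. Part of that gap lies in the rule, because a row that varies widely and still has 10 FPKM everywhere must reach a high mean. Measured in the tissue where a gene was lowest, the medians were 22.1 FPKM for the members and 23.2 FPKM for the other rows. Only 10 members (3.33%) had a mean over 100 FPKM, against 1184 of the other rows (22.1%).

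The highest member was row 32693 (1384 bases), with 1405, 1422 and 1389 FPKM in root libraries, 1151, 1167 and 1157 in those of stem, 1196, 1197 and 1206 in leaf libraries and 1160, 1255 and 1231 in those of flower. Root lay above the other 9 libraries, leaf lay above stem, and flower spanned the gap between them through its replicate 1. Its range was 0.28.

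The next was row 19880 (1296 bases), which had the smallest replicate SD of all members, 0.025. It had 571, 589 and 552 FPKM in root libraries, 594, 594 and 589 in those of stem, 540, 541 and 546 in leaf libraries and 534, 526 and 532 in those of flower. Its highest library was 1.13 times its lowest, the smallest such ratio among the 300 genes. The order was stem, root, leaf and flower, and root and stem overlapped. Stem minus flower was 0.16 (SE 0.033 by limma). The 12 values stood on 19994 reads or more per library, so this was also one of the most precisely counted members.

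Row 729 (156 bases) and row 28394 (1913 bases) completed the 4 highest. Row 729 had 427 ± 8.46 FPKM in root, against 398 ± 10.5 in stem, 355 ± 19.6 in leaf and 330 ± 32.8 in flower (SD, n = 3 each). The order of its means was root, stem, leaf and flower, with only leaf and flower overlapping. Row 28394 had 300.1 ± 8.3 FPKM in root, against 278 ± 2.46 in stem, 250.2 ± 6.82 in leaf and 310 ± 28.1 in flower (SD, n = 3 each). Its flower value was 278 FPKM in replicate 1 and 329 and 323 in the other two, so the flower libraries spread across those of root and stem.

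At the low end, row 26427 (1908 bases) had 12.7, 13.0 and 14.98 FPKM in root and between 10.3 and 11.5 FPKM in the other 9 libraries. Row 15924 (1113 bases) ranged from 10.2 to 13.0 FPKM, and its tissues overlapped except that flower lay above leaf. Row 5787 (2341 bases) had 14.5, 13.3 and 13.5 FPKM in leaf and between 10.5 and 12.3 FPKM elsewhere. These genes lie just over the minimum of 10 FPKM, so a value below 10 in any library would have kept them off the list.

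The highest of the 4 tissue means was in root for 119 members (39.7%, against 39.1% of the other 5355 rows) and in flower for 74 (24.7%, against 30.1%). It was in stem for 57 (19%, against 17.3%) and in leaf for 50 (16.7%, against 13.5%). The lowest mean was in leaf for 115 members (38.3%, against 38.8%) and in flower for 90 (30%, against 39.8%). It was in stem for 60 (20%, against 6.98%) and in root for 35 (11.7%, against 14.4%). The median member differed by 0.043 for root minus stem, 0.096 for root minus leaf, 0.069 for root minus flower, 0.045 for stem minus leaf, 0.0034 for stem minus flower and -0.024 for leaf minus flower. Over all 20769 genes tested the same medians were 0.084, 0.28, 0.61, 0.13, 0.58 and 0.48. Over all 26625 rows above 0, many of them near 0 FPKM, they were 0.030, 0.11, 0.25, 0.021, 0.21 and 0.15. The rule limits the members' values, so these are descriptions only.

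The median SE of a difference between 2 tissues was 0.072 for the members, by limma over all 20769 genes. At an adjusted p under 0.05 with no minimum on the difference, 80 of 300 members differed between root and stem, where 59.6% of all tested genes did. Between root and leaf 130 members differed (77% of all genes), between root and flower 135 (86.2%), between stem and leaf 105 (67%), between stem and flower 115 (85.5%) and between leaf and flower 123 (86.4%). In 60 members (20%) no pair of tissues differed by this test, against 1.73% of all tested genes. The rule used these contrasts and put the members below the rest, so nothing is read from the shares. None of the 300 could pass a minimum difference of 1, since their largest was 0.38.

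Row 26687, the last member taken, shows how far evenness went at the limit. It had 33.5, 36.4 and 36.5 FPKM in root libraries, 34.3, 34.1 and 31.4 in those of stem, 26.9, 26.4 and 27.6 in leaf libraries and 42.2, 33.3 and 31.1 in those of flower. Leaf lay below all other libraries, and root minus leaf was 0.38 (SE 0.094). Row 7913 was highest in stem, at 28.5, 32.9 and 29.6 FPKM against 22.6 to 26.8 FPKM in the other 9 libraries. Row 29961 had 24.0, 24.5 and 25.6 FPKM in root libraries, 22.1, 22.7 and 21.9 in those of stem, 19.7, 18.6 and 20.8 in leaf libraries and 18.4, 19.4 and 18.4 in those of flower, and only leaf and flower overlapped.

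The rule did not use the spread of replicates directly. It still enters through the tissue means of 3 libraries and the minimum of 10 FPKM in every library. The pooled replicate SD of the members had a median of 0.084, against 0.086 in the other 5355 rows that met the minimum, on the log2(FPKM + 1) scale. Among rows whose lowest tissue mean lay between 15.4 and 33.6 FPKM, the interquartile range of the members, it was 0.083 for 150 members and 0.090 for 2346 other rows. Pooled over the tissues, genes even across tissues were thus close to the others in how much their replicates varied. The medians by single tissue, not matched for level, lay further apart. The members' median SD was higher in root (0.065 against 0.054), stem (0.069 against 0.053) and leaf (0.064 against 0.056). In flower it was lower (0.088 against 0.104). Members had fewer reads, with a median of 1181 per library against 1813 in the other rows. Counting of reads alone gives a median SD of 0.040 for the members and 0.036 for the other rows. The part of counting in the gaps by tissue was not tested. The members' replicate variance was 4.30 times the counting variance by the median, against 4.85 times in the other rows.

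Flower replicates varied most. The median SD within flower was 0.088 for the members, while root had 0.065, stem 0.069 and leaf 0.064. In the other rows it was 0.10 in flower and 0.053 to 0.056 in root, stem and leaf. Flower replicate 1 stood apart from the other flower libraries. The median member lay 0.049 above its flower mean in that library and 0.028 and 0.017 below it in replicates 2 and 3.

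**Figure D3:**
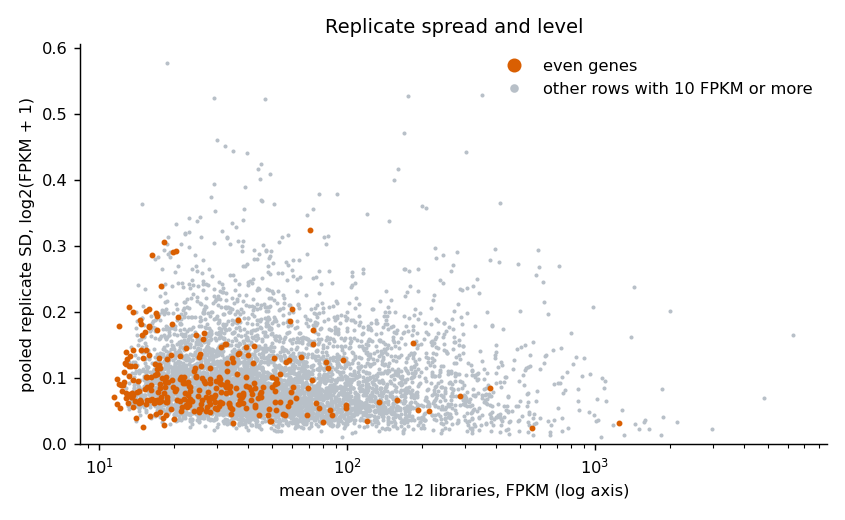
Pooled replicate SD on the log2(FPKM + 1) scale (y) against the mean over 12 libraries in FPKM (x, log axis), with the even genes in orange and the other rows with at least 10 FPKM in grey. The even genes lie within the cloud of the other rows, with medians of 0.084 and 0.086, and few lie above 100 FPKM.

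A small range of tissue means did not always mean a steady gene. Row 25801 (2307 bases) had the largest replicate SD of the members, 0.32. It had 76.4, 76.3 and 74.2 FPKM in root libraries, 73.9, 74.6 and 76.6 in those of stem, 67.7, 67.3 and 69.7 in leaf libraries and 101.0, 46.1 and 45.8 in those of flower. Its flower mean lay near the others only through replicate 1, and its range was 0.33 with that library and 0.71 without it. Row 32141 (417 bases) had 35.4 FPKM in flower replicate 1 and 16.2 to 23.0 FPKM in the other 11 libraries. Row 3574 (161 bases) had from 12.3 to 27.8 FPKM and the fewest reads of any member in a library, 62. Across the 300 genes the highest library was under 1.5 times the lowest in 247 and over 2 times the lowest in 3, which were these 3 rows.

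The next smallest replicate SDs after that of row 19880 belonged to rows 5111 and 18265, both long. Row 32693, the highest member, had only 1384 bases and a replicate SD of 0.031. Row 5111 (6329 bases), the longest member, had 17.0, 17.3 and 16.6 FPKM in root libraries, 16.6, 16.1 and 16.2 in those of stem, 13.0, 13.0 and 13.4 in leaf libraries and 13.7, 14.3 and 13.8 in those of flower. Its replicate SD was 0.027, and root and stem lay above leaf and flower with no overlap. Row 18265 (4330 bases) had a replicate SD of 0.028 and means of 20.2 ± 0.409 FPKM in root, against 18.9 ± 0.22 in stem, 17.1 ± 0.48 in leaf and 16.8 ± 0.336 in flower (SD, n = 3 each).

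Members were somewhat longer than the other rows. Their median length was 1558 bases, against 1338 in the other 5355 rows and 1350 in all tested genes. With the lowest tissue mean between 15.4 and 33.6 FPKM the medians were 1712 bases for members and 1392 for the other rows. Genes under 300 bases were 16 of the 300 members (5.33%) and 505 of the other rows (9.43%). Short genes have few reads at a given FPKM, and their tissue means carry more counting error. Length and counting error move together here, and the part of either in the list was not tested. The shortest members were row 24895 (78 bases), row 8308 (87 bases) and row 14154 (120 bases), with pooled replicate SDs of 0.17, 0.15 and 0.20. The next longest after row 5111 were row 6093 (5366 bases) and row 9729 (5286 bases), with SDs of 0.054 and 0.066. A length that is a multiple of 3, as a coding sequence without untranslated regions has, was found for 42.3% of the members and 41.9% of the other rows.

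The same measure in libraries that did not choose the list gave wider ranges. The rule was applied to 2 replicates of each tissue, and the range of those 300 rows was then taken over the 4 libraries left out, 1 per tissue. It had a median of 0.36 when replicate 1 was left out, 0.34 for replicate 2 and 0.33 for replicate 3, against 0.29, 0.29 and 0.30 in the libraries that chose them. The other rows that met the minimum had medians of 1.28, 1.30 and 1.29 in the same left-out libraries. Of the 300 rows, 170, 185 and 180 stayed within 0.38 in the left-out libraries. Among the other rows 1.78%, 1.93% and 1.53% did. Those rows were passed over for larger ranges in the same tissues, and the replicates may be technical. The contrast is therefore a description, and nothing is read from it. A range over single libraries also carries more noise than one over means of libraries. The lists chosen this way shared 252, 258 and 252 rows with the 300 genes.

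Evenness depended on the scaling of the libraries. FPKM divides by the library total, and the median over the 20769 genes tested was 0.61 for root minus flower on that scale (0.25 over all 26625 rows above 0). Median-ratio scaling, which takes the median ratio to a mean library over rows above 0 in all libraries, had factors of 1.23 to 1.25 for root libraries, 1.18 for stem, 1.02 to 1.03 for leaf and 0.715 to 0.758 for flower. After division by these factors all 300 members had their highest mean in flower. Their lowest mean was in root for 156, stem for 122 and leaf for 22. Among the other rows 52.8% were then highest in flower. The members' median range became 0.74, against 0.30 before, and the median of the other rows was 1.29 after this scaling. By limma on the rescaled values 298 of 300 members were lower in root than in flower, as were 41.9% of all genes tested. In stem 297 were lower than in flower (41.1% of all genes), and in leaf 281 were (40.4%). Of the 300, 27 were lower in root than in flower by at least 1, a smaller share than the 26.3% of all genes. The choice of members and the factors set the direction. The counts also depend on each gene's replicate spread and on the size of its difference, and nothing is read from them.

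**Figure D4:**
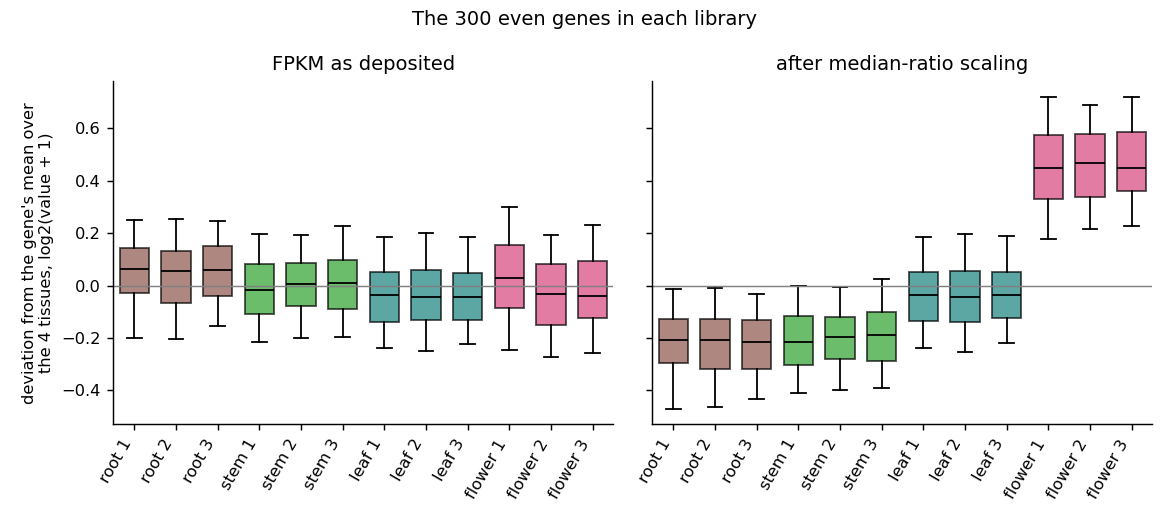
Deviation of the 300 even genes from their own mean over the 4 tissues (y, log2(value + 1)) in each library (x), for FPKM as deposited (left) and after median-ratio scaling (right). Boxes span the quartiles with the median as a line, and whiskers run from the 5th to the 95th percentile. All medians lie between -0.042 and 0.062 on the left, and the 3 flower medians lie at 0.45 to 0.47 on the right.

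These shifts follow from the factors. Root and flower factors were 0.77 apart on the log2 scale, stem and flower 0.69, and leaf and flower 0.49, each more than the 0.38 that bounds a member's range. A list of 300 rows chosen by the same rule after median-ratio scaling shared 0 rows with the 300 genes. Its limit was 0.34, and the 2 limits together, 0.72, were less than the 0.77 between root and flower. Ranges are on log2(value + 1), where the shift of a low gene is smaller than 0.77. The limits alone therefore do not fix the 0 shared rows. On FPKM all 300 rows of that other list were lowest in flower, and their median range was 0.75. Which scale is nearer to the amount of RNA per cell was not tested.

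No member stayed in the list after this scaling. The members nearest to it were row 2679 (2253 bases) and row 7173 (1712 bases), named after their values were seen, with ranges of 0.35 and 0.36 after scaling. Row 2679 had 14.9, 14.1 and 15.04 FPKM in root libraries, 13.1, 15.4 and 15.3 in those of stem, 13.9, 15.2 and 14.4 in leaf libraries and 10.97, 11.1 and 11.6 in those of flower. Its flower libraries lay below all others on FPKM. Row 7173 was also lowest in flower, at 20.3 ± 2.96 FPKM, against 26.5 ± 0.997 in root, 26.0 ± 1.19 in stem and 24.9 ± 1.67 in leaf (SD, n = 3 each).

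Other scalings kept part of the list. Median-ratio scaling over the 5655 rows with at least 10 FPKM in all libraries had factors of 1.16 for root, 1.09 for stem, 0.867 to 0.87 for leaf and 0.908 to 0.928 for flower, and the resulting list shared 82 rows with the 300 genes. Upper-quartile scaling shared 75. Rescaling every library to the same total of FPKM shared 256. Among other choices, 294 rows were shared at a pseudocount of 0.1, 249 with the coefficient of variation in place of the range, and 238 with the range over single libraries. With a minimum of 5 FPKM 221 were shared, with only 1 FPKM in 3 libraries 166, and with a minimum of 20 FPKM 155.

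**Figure D5:**
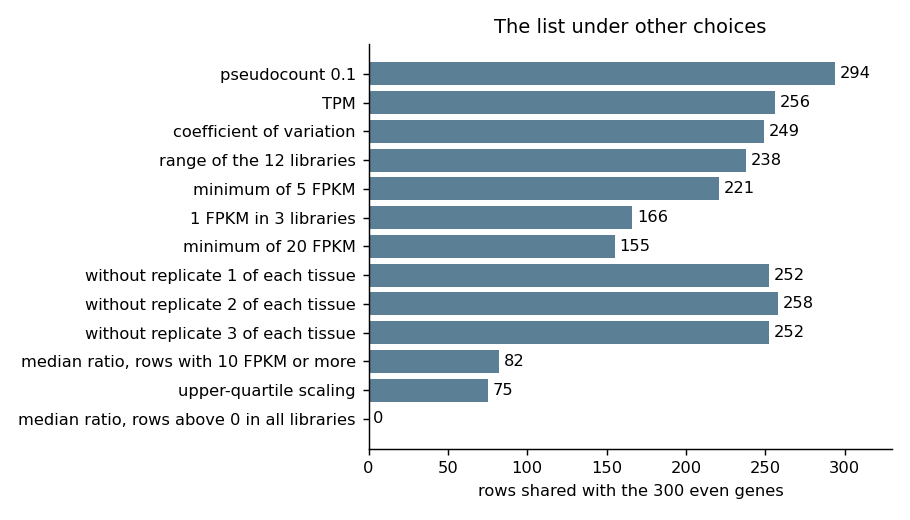
Number of rows (x) that a list of 300 rows shares with the 300 even genes when 1 choice of the rule is changed (y). The bars run from 0 shared rows after median-ratio scaling over rows above 0 in all libraries to 294 at a pseudocount of 0.1.

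The summed share of the 300 genes is set by the rule, which bounds the differences of each member, and is given as a description. They held 1.63% ± 0.00383 of all FPKM in root, against 1.54% ± 0.0114 in stem, 1.49% ± 0.00422 in leaf and 1.504% ± 0.042 in flower (SD, n = 3 each). The root libraries lay above all others, at 1.63% to 1.64%, and flower replicate 1, at 1.55%, lay above the other flower libraries, at 1.47% and 1.48%. By tissue means, the median member had 25.5 FPKM in root and 24.8 FPKM in stem, and 23.7 FPKM in leaf and 24.6 FPKM in flower. The median of the other rows that met the minimum was 45.5 FPKM for root, 45.6 for stem, 35.7 for leaf and 37.8 for flower.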

How the data were processed

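RNA came from TRIzol extraction, and a VAHTS Universal V6 kit gave the libraries, per the labels' protocols. FPKM of 12 libraries, as deposited, are used here without gene identifiers. HISAT2, HTSeq, fastp and R 3.2.0 are listed, per the submitters' processing notes, with no roles. The sources used here give neither build nor annotation, nor the treatment of reads from near-identical genes, and the levels of such genes are uncertain.

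Library totals and gene lengths were recovered from the deposited FPKM, which are whole multiples of the value of 1 read. Whole reads within 0.01 were found for 100% of the 26625 rows above 0. The shortest length that fit was kept, so a row above 0 in few libraries fits easily, and its length is uncertain. Recovered lengths of tested genes went down to 6 bases. A read may be a pair of reads, and counting errors cover counting only.

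Differences between tissues come from limma 3.58.1 (R 4.3.3) on log2(FPKM + 1), with tissue means and a mean-variance trend. It covered the 20769 genes that reached 1 FPKM in 3 or more libraries, with Benjamini-Hochberg adjustment within each pair of tissues. It was tested on simulated data. Differences on this scale understate those of low genes. Python 3.11.15 was used for the rest. The members and lists were chosen with earlier results of these data known. Genes were named by rule: the 6 smallest ranges, the 4 highest and 3 lowest levels, 3 on either side of the limit, 3 with the smallest and 3 with the largest replicate SD, the 3 longest and 3 shortest, and members kept after median-ratio scaling. Alternatives were pseudocount, scaling, minimum, filter, replicate block, measure of evenness and libraries left out. Upper-quartile scaling and median-ratio scaling over the rows with at least 10 FPKM were chosen after seeing the data, as were alternatives for the members' range.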

Additional observations from a re-analysis of the deposited data

How the results depend on the processing

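Scaling moved the members most. After median-ratio scaling the members' median difference was -0.17 for root minus leaf, -0.67 for root minus flower, -0.15 for stem minus leaf, -0.67 for stem minus flower and -0.49 for leaf minus flower, their median range was 0.74, and 0 rows were shared. With upper-quartile scaling these values were -0.066, -0.35, -0.13, -0.43, -0.28, 0.48 and 75. With median-ratio scaling over the rows with at least 10 FPKM they were -0.31 for root minus leaf, -0.26 for root minus flower, -0.27 for stem minus leaf, -0.25 for stem minus flower and 0.049 for leaf minus flower, against -0.024 on FPKM, with a median range of 0.42 and 82 shared rows. Root minus stem, 0.043 on FPKM, turned to -0.027 and -0.040 under the 2 median-ratio scalings. A minimum of 20 FPKM shared 155 rows, and the filter of 1 FPKM in 3 libraries in place of the minimum shared 166. By recovered reads the members' share was 1.82% for root, 1.73% for stem, 1.697% for leaf and 1.73% for flower. Over all genes tested, the number called stayed within 1.5 times in every pair and under all alternatives run. The number of members called did not. After median-ratio scaling it was 298 against 135 for root and flower, at an adjusted p under 0.05. For stem and flower it was 297 against 115, and for leaf and flower 281 against 123. It was 74 against 80 for root and stem, 145 against 130 for root and leaf and 134 against 105 for stem and leaf.

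Leaving out 1 library, the list shared 275 to 286 rows, lowest without flower replicate 1, and 252 to 258 without 1 replicate number. The members' median range was 0.29 to 0.30, the replicate spread 0.073 to 0.085, and the median differences ran from 0.036 to 0.049, 0.096 to 0.11, 0.065 to 0.097, 0.037 to 0.046, -0.011 to 0.030 and -0.035 to -0.00018 for root minus stem, root minus leaf, root minus flower, stem minus leaf, stem minus flower and leaf minus flower. Members that differed between root and stem were 59 to 102, against 80 with all libraries. Of all 20769 genes tested, 11372 to 13285 did, against 12372. Members were 108 to 147 for root and leaf, 122 to 150 for root and flower, and 79 to 123 for stem and leaf. They were 93 to 118 for stem and flower and 98 to 126 for leaf and flower. In the same order, all genes called were 15403 to 16433, 17514 to 17928, 13161 to 14599, 17387 to 17738 and 17548 to 17911.

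Replicate numbers showed no clear pairing of the libraries, though deviations from means of 3 libraries could miss a weak one. Same-numbered libraries of different tissues had correlations of their deviations from -0.036 to 0.025 over 18 pairs, and 6 of 12 libraries correlated best with their own number. With the replicate block, 12229 genes differed between root and stem at an adjusted p under 0.05, against 12372 without it, and 17885 against 17954 between leaf and flower. FPKM values of short genes rest on few reads, 62 in the lowest library of a member, which limits what their evenness shows.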
